A study of Mus musculus with 8 samples.

Results

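The genes described here lie next to each other on mouse chromosome 8, from the adhesion receptor gene Adgre5 to the adenylyl cyclase gene Adcy7. They were chosen by name and position, from a list of 52 genes drawn up with earlier results of these arrays known. Measured differences between these arrays went into that choice, and which contrast was used is not stated, so every difference between groups below is a description and carries no test. Of the 52 genes, 51 had probe sets under their symbol in the platform annotation, 106 probe sets in all, out of 18193 genes and 34945 probe sets with 1 gene symbol. Stx10 had no probe set under that symbol and was not analysed here. In RefSeq order the first of the genes is Ddx39a, directly followed by Adgre5.

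RNA was measured on 8 Affymetrix arrays, with 1 array per sample. They held 4 lines grown out of tumours that JoMa1 cells transfected with MYCN had formed in immunocompromised mice (numbered 3 to 6), 1 sample of JoMa1 whose label gives a GFP control as the transfectant, and 3 samples of parental JoMa1. JoMa1 is a mouse neural crest precursor line, and MYCN encodes a transcription factor and is amplified in aggressive neuroblastomas. JoMa1 is known to carry a MYC fusion protein that tamoxifen activates, which all 3 groups would share, and whether tamoxifen was given is not stated in the sources used here. The tumour lines are called independent tumours in the labels but may derive from 1 transfected stock of cells. No label says whether the parental samples were separate cultures, and their spread may be technical. The promoter that drove MYCN, and the ages of the host animals, are not given in the sources used here.

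Levels are given as log2 RMA values, so that a difference of 1 is a change of 2-fold. A gene with several probe sets is read from the one that was brightest on average, and ± stands for the SD within a group. Array medians ran from 6.26 to 6.30. The bacterial trpnX controls, which mark the level without target, read 3.84 to 4.04. The brightest Mycn probe set read 14.17 ± 0.08 in tumour lines (n = 4), 11.73 on the GFP-labelled array and 7.42 ± 0.12 in parental arrays (n = 3). Of the other 2 Mycn probe sets, 1 read 4.60 ± 0.07, 4.33 and 8.13 ± 0.11 in the same order and 1 read 6.07 ± 0.16, 5.88 and 5.76 ± 0.18. With the brightest probe set, the signal of the GFP-labelled array goes against its label, so every difference from that array is one from the library labelled GFP-transfected. Of 11 neural crest markers, 9 stood at 6 or more in at least 1 group, and Ngfr and Foxd3 did not. Leukocyte markers (8 genes) averaged 5.78 to 5.85 in tumour lines, 5.59 on the GFP-labelled array and 5.34 to 5.48 in parental arrays, with the pan-leukocyte gene Ptprc, Adgre1, Itgam and Cd52 below 6 in all 3 groups. Of the other leukocyte markers, Cd14 read 9.26, 7.91 and 7.43 in the same order, Cd68 6.52, 6.48 and 5.73, Lyz2 6.20, 5.74 and 5.72, and Csf1r 7.11, 7.04 and 7.05. Endothelial markers (4 genes) averaged 5.17 to 5.57, 5.65 and 5.15 to 5.34 in the same order, with Pecam1 and Tek below 6 in all 3 groups, Kdr at 7.52, 7.0 and 7.30, and Cdh5 at 4.75, 6.71 and 4.75. Fibroblast markers (6 genes) averaged 9.37 to 10.26, 5.88 and 8.0 to 8.11 in the same order, and did not move together. Thy1 read 8.98, 5.14 and 4.98, Col1a2 11.53, 6.46 and 8.53, and Pdgfra 10.92, 6.76 and 8.36. Col1a1 read 11.44, 6.02 and 10.82, Dcn 9.77, 5.70 and 9.81, and Lum 5.56, 5.22 and 5.87. The part of these lists in the results below was not tested.

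Genes that lie side by side share the DNA copy number and much of the chromatin setting of their stretch of chromosome. In tumours and in cultured lines, neighbouring genes are known to shift together where such a stretch is gained, lost or silenced, whatever the functions of the single genes. The genes between Adgre5 and Adcy7 were not tested for a common pathway. They include signalling enzymes and receptors, transcription and chromatin factors, a tRNA synthetase and other genes of translation, chaperones, sorting proteins and metabolic enzymes. In the human genome, the genes from Adgre5 to Man2b1 and those from Vps35 to Adcy7 lie on different chromosomes. DNA was not measured on these arrays.

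Most of the 51 listed genes were higher in all 4 tumour lines than in all 3 parental arrays. The median difference of the list was 1.69 on the log2 scale (3.22-fold), against a median of 0.01 over all genes. The quartiles of the list were 0.96 and 2.14. In 43 of the 51 genes every tumour line lay above every parental array, where 21.2% of all genes did. In 3 genes, Adgre5, Heatr3 and Adcy7, every tumour line lay below every parental array, where 23.2% of all genes did. The groups overlapped in the other 5, Rfx1, Lyl1, Syce2, Mast1 and Cnep1r1. In 33 genes every tumour line stood at least 2-fold above the parental mean, as it did in 3.20% of all genes. At an adjusted p under 0.05 in limma, 43 genes were called higher, where 16.6% of all genes were, and 3 were called lower, where 19.4% were. These counts describe a list that was chosen for such differences, and nothing is read from them.

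**Figure D1:**
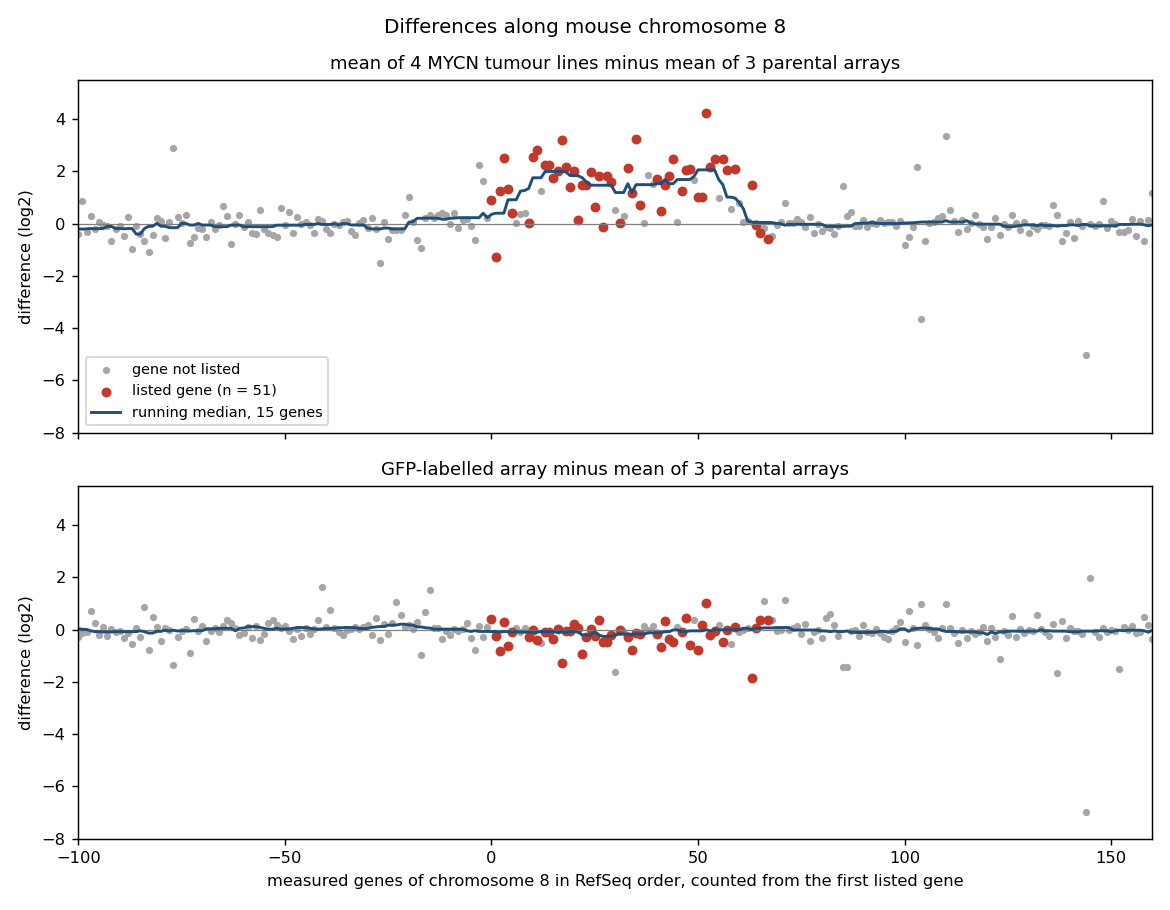
Differences of single genes along mouse chromosome 8 on the log2 scale (vertical axis), with the measured genes nearest to the stretch in RefSeq order and counted from the first listed gene (horizontal axis); the upper panel shows the mean of 4 MYCN tumour lines minus the mean of 3 parental arrays and the lower panel the GFP-labelled array minus that mean. Red points are the 51 listed genes, grey points other genes, and the line is the running median over 15 genes, which reached 2.05 within the stretch in tumour lines and stayed between -0.26 and 0.30 over the whole chromosome on the GFP-labelled array.

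The running median along chromosome 8 was highest over the listed genes, as the profile along the chromosome shows, while single genes near both ends were mixed. The running median over 15 genes was highest at 2.05, in the window from Wdr83 to Siah1a, and it was 1 or more in 52 windows of chromosome 8, centred from Misp3 to Gm10638. Line by line, the highest window of chromosome 8 reached 2.11 in tumour line 3, 1.96 in line 4, 2.16 in line 5 and 1.79 in line 6. On the GFP-labelled array the highest window of the chromosome was 0.30 and lay elsewhere, from Utp4 to Zfhx3. Its lowest, -0.26, lay inside the stretch, from Trmt1 to Prdx2.

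On the Adgre5 side the high values went past the listed genes. Dnajb1, which encodes a co-chaperone of HSP70, lies 3 measured genes before Ddx39a and read 13.19, 13.04, 13.28 and 13.02 in tumour lines 3 to 6, 11.03 on the GFP-labelled array and 10.94, 10.86 and 10.87 in parental arrays. Its difference between tumour lines and parental arrays was 2.24 (SE 0.08), with no overlap between the groups. Gipc1, a scaffold gene for receptor traffic, lies next to it and read 11.35, 11.04, 11.40 and 11.10 in tumour lines 3 to 6, 9.32 on the GFP-labelled array and 9.60, 9.65 and 9.52 in parental arrays. It differed by 1.63 (SE 0.10), again with no overlap. Ptger1, a prostaglandin receptor gene between Gipc1 and Ddx39a, was dim and overlapped, at 6.20, 6.08, 6.30 and 5.99 in tumour lines, 6.01 on the GFP-labelled array and 5.78, 6.02 and 5.96 in parental arrays (difference 0.22, SE 0.10). Within the list the first genes were mixed, with 0.91 for Ddx39a, -1.29 for Adgre5, 1.24 for Adgrl1, 2.51 for Asf1b, 0.39 for Samd1, 0.02 for Rfx1 and 2.55 for Dcaf15. Tecr, the gene just before Dnajb1, differed by -0.62, and was picked out after its value was seen. The nearest 25 genes on that side, Dnajb1 and Gipc1 included, had a median difference of 0.17.

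On the Adcy7 side the last genes of the list stood on the opposite side of 0. N4bp1, an RNA-degrading enzyme gene whose product also restrains the ubiquitin ligase Itch, differed by 2.09 (SE 0.11), and Zfp423, a zinc finger transcription factor gene, by 1.49 (SE 0.37). Of the unlisted genes between them, Cbln1 differed by 0.80, Gm2694 by 0.04 and 4933402J07Rik by 0.10. The next listed genes were Cnep1r1, the partner of a phosphatase that acts on lipin, with -0.06 (SE 0.08), and Heatr3, linked to ribosome assembly in human cells, with -0.36 (SE 0.08). Adcy7, which makes cyclic AMP, closed the list with -0.58 (SE 0.16). Beyond it, the bromodomain gene Brd7 read 9.68, 9.41, 9.33 and 9.39 in tumour lines 3 to 6, 10.28 on the GFP-labelled array and 9.88, 9.96 and 9.90 in parental arrays, so that every line was below every parental array (-0.46, SE 0.09). The Wnt inhibitor gene Nkd1 read 6.56, 6.46, 6.46 and 6.64 in tumour lines, 6.54 on the GFP-labelled array and 6.52, 6.77 and 6.51 in parental arrays (-0.07, SE 0.09). The sorting nexin gene Snx20 read 6.21, 6.28, 6.38 and 6.13 in tumour lines, 6.17 on the GFP-labelled array and 6.18, 6.20 and 6.21 in parental arrays (0.05, SE 0.08). The groups overlapped in Nkd1 and Snx20. The nearest 25 genes on that side had a median of -0.03, and all 864 measured chromosome 8 genes outside the stretch had a median of -0.05.

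The list leaves out 17 measured genes that lie between its members. Their median difference was 0.40, so the list as chosen stands higher than the stretch as a whole, whose 68 measured genes had a median of 1.43. Of the 12 that reached 6 in at least 1 group, 9 had every tumour line above every parental array and 1, Tent4b, had every line below (-0.17, SE 0.07). Over all genes, whatever their level, these shares were 21.2% and 23.2%. In 4 of the 12 every tumour line stood at least 2-fold above the parental mean, where 3.20% of all genes did. The 4 were Get3 (1.84, SE 0.08), which inserts proteins into the endoplasmic reticulum, 4921524J17Rik (1.68, SE 0.09), Trir (1.53, SE 0.09) and 4930432K21Rik (1.26, SE 0.15). Of the 5 that stayed under 6 in all groups, 0 had every line above every parental array, and their differences ran from 0.00 to 0.35.

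**Figure D2:**
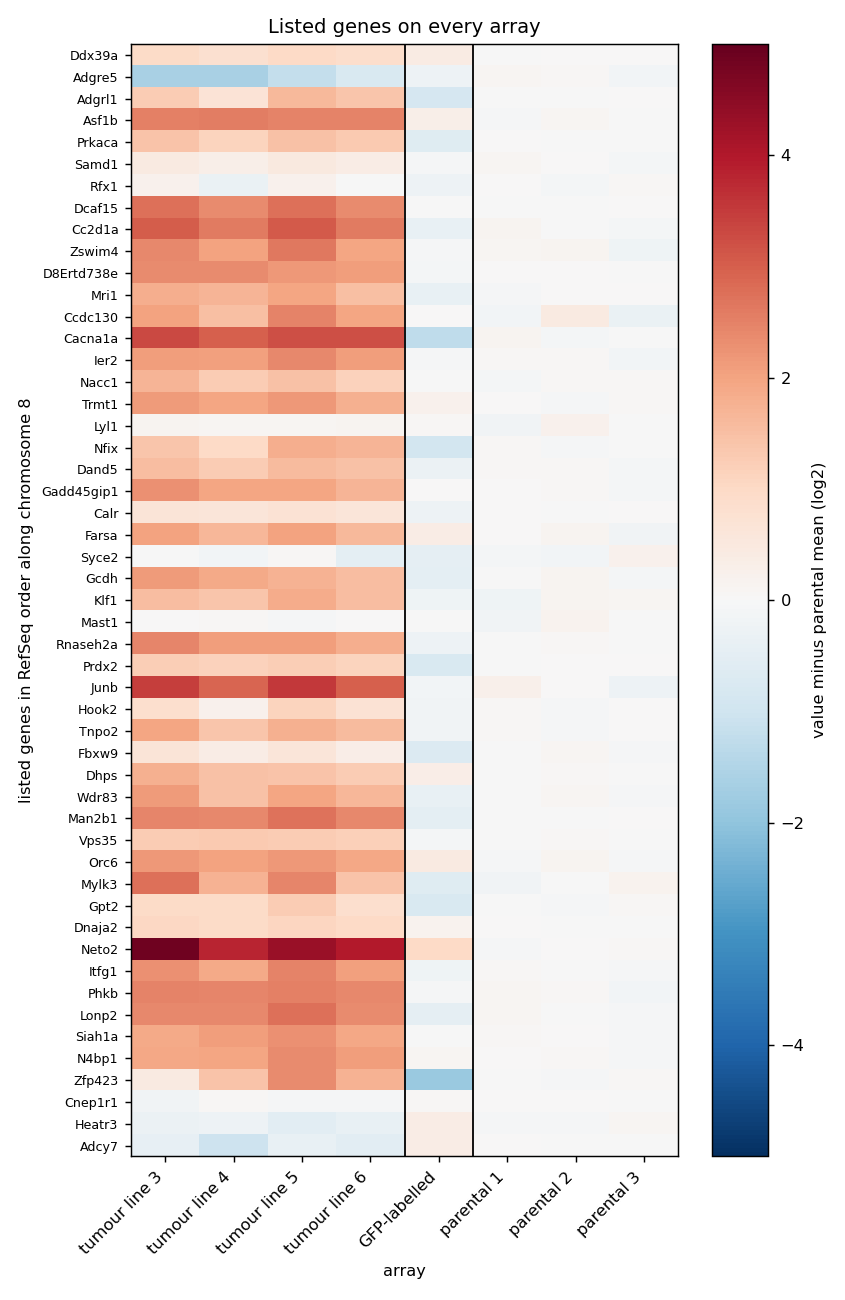
Value of each of the 51 listed genes (rows, in RefSeq order) on each of the 8 arrays (columns) minus the mean of the 3 parental arrays, on the log2 scale of the colour bar. Red cells fill the 4 tumour-line columns from Asf1b to Zfp423 apart from single pale rows such as Rfx1, Lyl1, Syce2 and Mast1, while Adgre5, Heatr3 and Adcy7 are blue there.

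The largest difference of the list was that of Neto2, which encodes an auxiliary subunit of kainate-type glutamate receptors. Neto2 read 11.52, 10.48, 10.98 and 10.65 in tumour lines 3 to 6, 7.68 on the GFP-labelled array and 6.60, 6.68 and 6.73 in parental arrays. The tumour lines stood far above all other arrays, and the GFP-labelled array lay between the groups. The difference between tumour lines and parental arrays was 4.24 (SE 0.22, 18.9-fold). The GFP-labelled array was 1.0 above the parental mean with this probe set. Other Neto2 probe sets differed by 3.54 and 1.38 in the same direction between tumour lines and parental arrays. On the GFP-labelled array they stood 0.43 and -0.02 from the parental mean.

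Junb, a subunit of the AP-1 transcription factor made quickly after growth signals, followed. It read 11.79, 11.22, 11.86 and 11.29 in tumour lines 3 to 6, 8.20 on the GFP-labelled array and 8.58, 8.33 and 8.05 in parental arrays. Lines 3 and 5 were the higher pair, and the GFP-labelled array fell within the parental range. The difference was 3.22 (SE 0.19, 9.30-fold). Ier2, another gene induced early by growth signals, differed by 2.16 (SE 0.10), at 12.69 ± 0.16 in tumour lines and 10.53 ± 0.11 in parental arrays.

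Cacna1a, the pore subunit of P/Q-type calcium channels of neurons, read 10.88, 10.58, 10.79 and 10.79 in tumour lines 3 to 6, 6.30 on the GFP-labelled array and 7.69, 7.48 and 7.54 in parental arrays. The tumour lines lay close together, and the GFP-labelled array was the lowest of all 8. Tumour lines were 3.19 (SE 0.09, 9.13-fold) above parental arrays. A second bright probe set of Cacna1a differed by 2.14, while probe sets that read under 6 differed by 0.10 and -0.08.

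Among chromatin and transcription genes, 10 of 12 had every tumour line above every parental array, where 21.2% of all genes did. The median difference of the group was 1.54. This and the other role groups are parts of a list chosen for such differences. Nothing about the roles is read from their counts. Cc2d1a, a scaffold and transcriptional repressor gene, read 10.81, 10.35, 10.85 and 10.38 in tumour lines 3 to 6, 7.38 on the GFP-labelled array and 7.89, 7.77 and 7.65 in parental arrays. Its groups were apart by 2.83 (SE 0.14, 7.11-fold), with lines 3 and 5 again the higher pair. Asf1b, a histone H3-H4 chaperone of dividing cells, read 12.65, 12.70, 12.61 and 12.63 in tumour lines, 10.43 on the GFP-labelled array and 10.09, 10.21 and 10.10 in parental arrays. The 4 lines differed by only 0.09 among themselves, against a difference of 2.51 (SE 0.07) from parental arrays. Zswim4, a zinc finger gene thought to serve in ubiquitin ligase complexes, read 10.16, 9.78, 10.42 and 9.73 in tumour lines, 7.70 on the GFP-labelled array and 7.86, 7.90 and 7.56 in parental arrays, and its groups were apart by 2.25 (SE 0.18).

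Other genes of that group differed less. The transcription factor gene Nfix, active in muscle and neural stem cells, differed by 1.47 (SE 0.18), the co-repressor gene Nacc1 by 1.39 (SE 0.13), and the CpG island binding protein gene Samd1 by 0.39 (SE 0.08). Klf1, the erythroid master regulator, differed by 1.58 (SE 0.13), at 7.04 ± 0.21 in tumour lines and 5.46 ± 0.19 in parental arrays. Hba-a1, Alas2 and Gata1, which mark red blood cell precursors, stayed under 6 in all 3 groups, and the erythropoietin receptor gene Epor, a further erythroid marker, read 7.02 in tumour lines, 6.87 on the GFP-labelled array and 7.10 in parental arrays. Lyl1, a blood cell transcription factor gene, was also under 6 throughout and differed by 0.12 (SE 0.10). Rfx1, a factor that binds X-box promoters, was well above the floor and still overlapped between groups. It read 9.32 ± 0.27 in tumour lines and 9.30 ± 0.07 in parental arrays.

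Zfp423, a cofactor of BMP signalling, varied most among the tumour lines. It read 7.19, 8.15, 9.09 and 8.50 in lines 3 to 6, 4.90 on the GFP-labelled array and 6.73, 6.70 and 6.80 in parental arrays. Line 3 was 0.45 above the parental mean and line 5 was 2.35 above it. The GFP-labelled array lay 1.85 below that mean and was the lowest of all 8.

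Of the 3 genes of DNA replication and repair, Orc6, a subunit of the origin recognition complex, differed by 2.06 (SE 0.09), and Rnaseh2a, the catalytic subunit of the enzyme that removes ribonucleotides from DNA, by 2.11 (SE 0.13). Syce2, which builds the synaptonemal complex of meiosis, was dim and overlapped between groups (-0.14, SE 0.15). In the RNA and translation group all 7 genes had every tumour line above every parental array, where 21.2% of all genes did. These 7 had a median of 1.84. They were the tRNA methylase gene Trmt1 (2.02, SE 0.10), Ccdc130 (1.99, SE 0.25), of a splicing factor family, the mitochondrial ribosome gene Gadd45gip1 (1.98, SE 0.13), the phenylalanyl-tRNA synthetase subunit gene Farsa (1.84, SE 0.13), Wdr83 (1.80, SE 0.15), the hypusine synthesis gene Dhps (1.49, SE 0.11) and the RNA export helicase gene Ddx39a (0.91, SE 0.07). Ccdc130 read 8.73, 8.23, 9.20 and 8.67 in tumour lines 3 to 6, 6.74 on the GFP-labelled array and 6.58, 7.18 and 6.39 in parental arrays. Its parental arrays were further apart than those of any other listed gene, and its groups still did not overlap.

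Of 9 signalling and membrane genes, 6 had every tumour line above every parental array, where 21.2% of all genes did. In 2, Adgre5 and Adcy7, every line was below, where 23.2% of all genes were. The median of the 9 was 1.34. Prkaca, the main catalytic subunit of protein kinase A, differed by 1.34 (SE 0.09), while Adcy7, which makes the cyclic AMP that activates this kinase, was lower in tumour lines. Adcy7 read 9.83, 9.18, 9.88 and 9.70 in tumour lines 3 to 6, 10.60 on the GFP-labelled array and 10.27, 10.20 and 10.23 in parental arrays. Tumour line 4 was the lowest, and the other Adcy7 probe sets differed by -0.40 and -0.71. Adgre5, the CD97 adhesion receptor of leukocytes and many tumour cells, read 8.03, 8.03, 8.46 and 8.87 in tumour lines, 9.39 on the GFP-labelled array and 9.74, 9.68 and 9.49 in parental arrays. It was the only listed gene at least 2-fold below parental arrays on average (-1.29, SE 0.20), although its neighbours Ddx39a and Adgrl1, the latrophilin receptor gene (1.24, SE 0.20), were higher.

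Mylk3, the cardiac myosin light chain kinase gene, read 8.42, 7.43, 8.12 and 7.10 in tumour lines 3 to 6, 5.08 on the GFP-labelled array and 5.52, 5.65 and 5.87 in parental arrays. It was dim in parental arrays and spread over 1.32 among the lines, with a difference of 2.09 (SE 0.29). Dand5, a secreted inhibitor of Nodal and BMP ligands, differed by 1.46 (SE 0.09). Mast1, a kinase gene of neurons, read 7.71 ± 0.04 in tumour lines and 7.69 ± 0.19 in parental arrays.

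**Figure D3:**
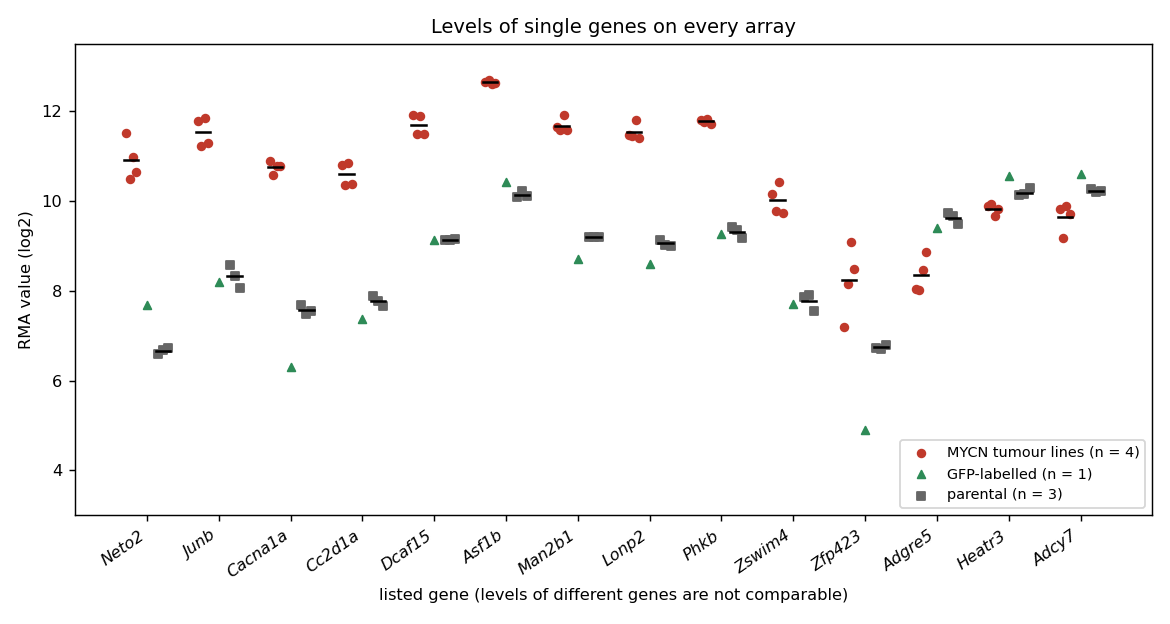
RMA values on the log2 scale (vertical axis) of 14 listed genes (horizontal axis) on the 8 arrays, with tumour lines as circles, the GFP-labelled array as a triangle, parental arrays as squares and group means as bars. The first 10 genes, with the largest differences, show no overlap between tumour lines and parental arrays, Zfp423 spreads over 1.91 among the tumour lines, and Adgre5, Heatr3 and Adcy7 are lower in tumour lines.

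Of 13 genes of protein folding, sorting and turnover, 11 had every tumour line above every parental array, where 21.2% of all genes did. The median of the 13 was 1.26. Dcaf15, the substrate receptor of a CUL4 ubiquitin ligase that aryl sulfonamide drugs bind, read 11.92, 11.49, 11.89 and 11.49 in tumour lines 3 to 6, 9.13 on the GFP-labelled array and 9.14, 9.14 and 9.16 in parental arrays. The parental and GFP-labelled arrays were nearly equal, and the tumour lines were 2.55 above parental arrays (SE 0.12, 5.87-fold). Man2b1, the lysosomal alpha-mannosidase gene, read 11.65, 11.59, 11.91 and 11.59 in tumour lines, 8.71 on the GFP-labelled array and 9.20, 9.19 and 9.21 in parental arrays. Its groups were apart by 2.49 (SE 0.09), the last such value before the boundary of the blocks that are separate in the human genome. Vps35, a retromer subunit gene and the next listed gene across that boundary, differed by 1.26 (SE 0.06).

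The remaining genes of the group followed the same direction with smaller or similar differences. The ubiquitin ligase gene Siah1a (2.05, SE 0.10), Itfg1 (2.18, SE 0.13), the nuclear import receptor gene Tnpo2 (1.69, SE 0.13), the co-chaperone gene Dnaja2 (1.01, SE 0.06), the dynein adaptor gene Hook2 (0.73, SE 0.18), the endoplasmic reticulum chaperone gene Calr (0.64, SE 0.07) and Fbxw9 (0.48, SE 0.10) were among them. The exceptions were Cnep1r1 and Heatr3. Heatr3 read 9.90, 9.92, 9.68 and 9.83 in tumour lines 3 to 6, 10.55 on the GFP-labelled array and 10.13, 10.15 and 10.30 in parental arrays, so that tumour lines were the lowest and the GFP-labelled array the highest.

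All 6 metabolic genes had every tumour line above every parental array, where 21.2% of all genes did. Their median was 1.79. Lonp2, a protease of peroxisomes, read 11.47, 11.45, 11.80 and 11.41 in tumour lines 3 to 6, 8.60 on the GFP-labelled array and 9.14, 9.03 and 9.01 in parental arrays. Phkb, the regulatory beta subunit of the kinase that switches on glycogen breakdown, read 11.80, 11.76, 11.84 and 11.73 in tumour lines, 9.27 on the GFP-labelled array and 9.42, 9.36 and 9.17 in parental arrays. Both differed by 2.47 between tumour lines and parental arrays (SE 0.10 and 0.08), and the lines of Phkb lay within 0.11 of each other. The lysine breakdown gene Gcdh (1.83, SE 0.13), the methionine salvage gene Mri1 (1.75, SE 0.11), the peroxiredoxin gene Prdx2 (1.19, SE 0.07) and the alanine aminotransferase gene Gpt2 (1.0, SE 0.11) completed the group. D8Ertd738e, for which no role is given here, differed by 2.24 (SE 0.09).

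Each of the 4 tumour lines carried the pattern, with smaller differences in its size. The median of the 51 genes against the parental mean was 1.83 in line 3, 1.46 in line 4, 1.87 in line 5 and 1.56 in line 6 (1.68 ± 0.20, SD over the 4 lines). Over all genes these medians ran from 0.00 to 0.02. Line 5 was the highest line in 27 of the 51 genes and line 3 in 16, whereas line 4 was the lowest in 23 and line 6 in 20. Over all 18193 genes, line 5 was the highest in 4765 and line 3 in 4719, whereas line 4 was the lowest in 4997 and line 6 in 4407. The range over the 4 lines had a median of 0.43 in the listed genes and of 0.28 in all genes. In each line alone, 34 to 40 of the 51 genes were at least 2-fold above the parental mean, against 4.77% to 6.13% of all genes.

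**Figure D4:**
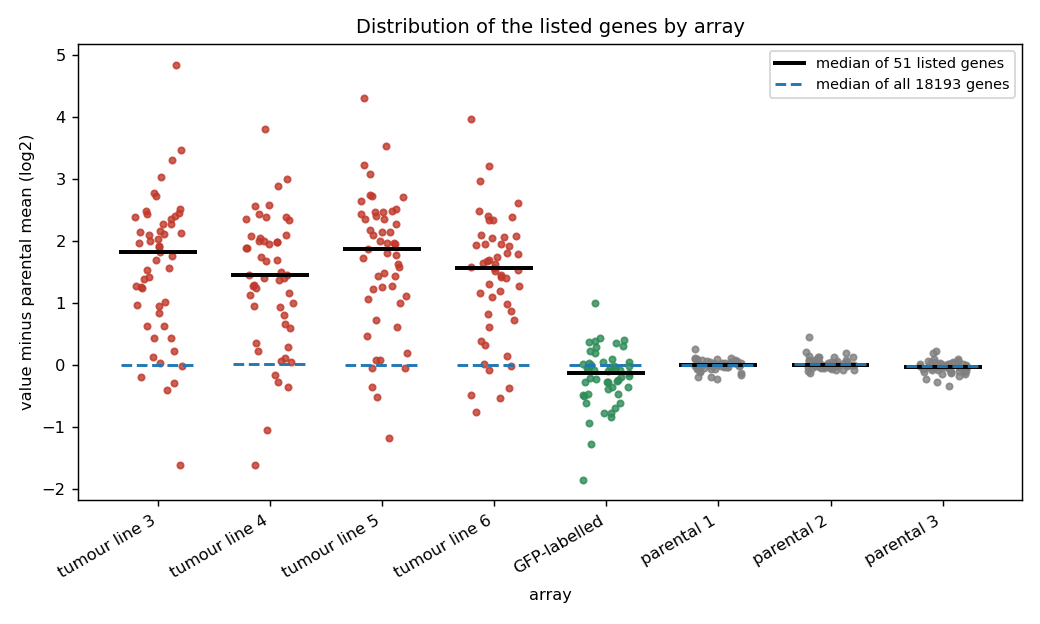
Value minus parental mean on the log2 scale (vertical axis) for the 51 listed genes (points) on each of the 8 arrays (horizontal axis), with the median of the listed genes as a solid bar and that of all 18193 genes as a dashed bar. The solid bars sit at 1.83, 1.46, 1.87 and 1.56 in tumour lines 3 to 6, at -0.12 on the GFP-labelled array and near 0 on parental arrays.

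On the library labelled GFP-transfected the median of the 51 genes was -0.12 against the parental mean, where all genes had a median of 0.00. With the probe sets used, Neto2 was the only listed gene at least 2-fold above the parental mean, where 2.04% of all genes were. Cacna1a (-1.27) and Zfp423 (-1.85) were at least 2-fold below, where 4.33% were. The other Neto2 probe sets differed from the parental mean by 0.43 and -0.02 on this array, and the second bright Cacna1a probe set by -0.35. In 27 of the 51 genes this array lay below all parental arrays, where 35.3% of all genes did, and in 12 above them, where 35.9% did. Nfix (-0.93), Adgrl1 (-0.83), Gpt2 (-0.78) and Prdx2 (-0.77) were among the lower ones, and Orc6 (0.44), Ddx39a (0.41) and Farsa (0.39) among the higher ones. With 1 array there is no replicate of these values.

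Set against the library labelled GFP-transfected instead of the parental arrays, the tumour lines were higher by a median of 1.95, and by 0.02 over all genes. This comparison shares the tumour lines with the one before. Every tumour line lay above this array in 44 of the 51 genes, where 35.5% of all genes did. In limma 43 genes were called higher at an adjusted p under 0.05, where 14.0% of all genes were, and 3 were called lower, where 16.4% were, and again nothing is read from these counts. The values of the leading genes were 4.46 for Cacna1a, 3.34 for Junb and Zfp423, 3.23 for Neto2 and 3.22 for Cc2d1a.

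More than 1 probe set was present for 30 of the listed genes. Of the 55 probe sets not used above, 47 had every tumour line above every parental array. Among the brightest probe sets of all genes 21.2% did, and no share was worked out over the unused probe sets of all genes. In 2, those of Adcy7, every line was below, where 23.2% of the brightest probe sets of all genes were. The median difference of the 55 was 1.29. All belong to genes of the chosen list, so nothing is read from these counts. No listed gene had probe sets that differed by more than 0.5 in opposite directions (0 cases). The size did depend on the probe set. In 4 genes another probe set gave a difference more than 0.5 larger than the brightest one, and in 12 genes another gave one more than 0.5 smaller. Dnaja2 differed by 1.01 with its brightest probe set, at 14.21 ± 0.05 in tumour lines, and by 2.38, 2.29 and 1.76 with the others. Vps35 likewise gave 1.26 and 2.31, and Prdx2 1.19 and 2.38. These genes were picked out after their values were seen, and their brightest probe sets read 13.57 to 14.21 in tumour lines, near the top of the scale of these arrays. Nfix, whose brightest probe set read 13.37 there, gave 1.47 with it and 0.75 to 2.02 with the others. Calr, at 13.94, gave 0.64 with its brightest probe set and 0.85 and 0.81 with the others. Whether brightness limited these differences was not tested.

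The promoters of the listed genes were read for the E-box CACGTG, the sequence that dimers of MYC proteins with MAX bind, which reads the same on both strands. The RefSeq promoter table of build GRCm38.p6 held 54 promoters of 42 of the 51 genes. Within the 250 bases before the start, 6 of the 54 (11.1%) held the motif, where 6.02% of all 32851 promoters did. The genes were Prkaca, Calr, Syce2, Hook2, Tnpo2 and Lonp2. Of the promoters below, that of Lonp2 belongs to the gene with the largest difference among the 6, that of Tnpo2 holds the motif at 2 places, that of Syce2 belongs to the gene that overlapped between groups, and that of Cc2d1a belongs to a gene that differed by 2.83 and holds no match. Capitals mark the motif, and each sequence runs 5′ to 3′ towards the start.
Lonp2, chr8:86651319-86651568, plus strand: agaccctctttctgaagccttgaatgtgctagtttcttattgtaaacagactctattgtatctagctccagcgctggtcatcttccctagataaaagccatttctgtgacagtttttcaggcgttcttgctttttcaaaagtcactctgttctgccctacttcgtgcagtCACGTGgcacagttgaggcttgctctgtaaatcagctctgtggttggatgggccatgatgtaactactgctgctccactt
Tnpo2, chr8:85036643-85036892, plus strand: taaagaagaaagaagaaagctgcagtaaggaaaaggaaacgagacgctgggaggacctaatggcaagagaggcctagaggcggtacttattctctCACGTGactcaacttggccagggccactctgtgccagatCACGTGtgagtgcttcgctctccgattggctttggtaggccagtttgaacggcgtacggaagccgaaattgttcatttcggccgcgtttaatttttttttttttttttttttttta
Syce2, chr8:84872008-84872257, plus strand: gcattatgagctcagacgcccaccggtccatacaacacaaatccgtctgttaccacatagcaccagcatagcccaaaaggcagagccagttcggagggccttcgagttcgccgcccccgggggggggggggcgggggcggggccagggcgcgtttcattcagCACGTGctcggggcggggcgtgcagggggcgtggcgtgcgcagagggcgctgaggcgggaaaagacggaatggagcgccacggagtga
Cc2d1a, chr8:84147918-84148167, minus strand: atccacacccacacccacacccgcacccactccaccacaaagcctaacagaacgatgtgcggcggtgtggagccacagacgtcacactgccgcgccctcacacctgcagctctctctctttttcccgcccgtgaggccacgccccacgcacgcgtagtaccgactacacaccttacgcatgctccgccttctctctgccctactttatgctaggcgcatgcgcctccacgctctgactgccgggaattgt

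Genes with and without the motif were found among those with large differences and among those without. A match is a stretch of letters and no measure of binding, which these arrays did not record.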

How the data were processed

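RNA from 8 cultured samples was hybridised to 1 Affymetrix array each. The deposited table gives 1 log2 value per probe set and array, to which the authors had applied RMA (background subtraction, normalization of arrays to 1 distribution, summary of probes). The submitters' processing notes name RMA and Partek but no version, and no genome build is stated. The values themselves showed the log2 scale. RMA understates differences of dim and of very bright probe sets.

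Of 45101 probe sets, 34945 with 1 gene symbol were used (932 with several, 9160 with none and 64 controls were left out). Each gene was represented by the probe set that was brightest on average over the 8 arrays. A RefSeq gene table (GRCm38.p6) gave the chromosome and start of genes, from which only the order of genes was used. Groups came from source names and the transfectant label. Differences and SE come from limma 3.58.1 in R 4.3.3 (lmFit, eBayes, 1 coefficient per group, 8 arrays), with Benjamini-Hochberg adjustment over 18193 genes, tested on simulated data. The lone GFP-labelled array was taken to vary as the other groups do. The number of arrays limits the precision.

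The listed genes, the role groups and the tests were chosen with earlier results of these data known. Genes with values on every array were the 10 with the largest difference among those reaching 6 in a group, the 4 with the widest range over tumour lines, those at the ends of the blocks and those entirely below parental arrays, beside the 3 nearest genes on either side. Alternatives were another summary of probe sets, filters, normalizations, a trended and robust variance prior, other window sizes, arrays left out, and the GFP-labelled array pooled with the parental ones or, added after seeing the data, left out. Adding the unlisted genes between the members was also chosen after seeing the data.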

Additional observations from a re-analysis of the deposited data

Results flagged for a closer look

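The early growth response gene Ier2 read 12.93 in tumour line 5, against 12.63, 12.59 and 12.62 in lines 3, 4 and 6. The gap to the nearest line made up 0.863 of the range of the 4 lines. It was the 1 listed gene of 51 in which a tumour line stood this far from the others, and chance alone marks about 1 in 20 groups.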

How the results depend on the processing

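The count of listed genes called higher in tumour lines than in parental arrays stayed between 41 and 43 when single arrays were left out, and the median difference between 1.66 and 1.77. Of 161 values recomputed under alternatives, 146 moved by less than the spread between arrays (or, for counts, by no more than 1.5 times), 15 moved further and 0 changed sign. Some of the 146 could not move, because the array left out did not enter the value. The median of a tumour line when another was left out is such a case, so 146 is no measure of stability. With the mean of each gene's probe sets, the median was 1.56 in line 3 and 1.63 in line 5, and 1.63 for tumour lines minus the library labelled GFP-transfected. With the unlisted genes between the members added, the median was 1.43 for tumour lines minus parental arrays, and 1.55, 1.47 and 1.35 in lines 3, 5 and 6. Over windows of 25 genes the highest running median was 1.75. The small median of the library labelled GFP-transfected against parental arrays (-0.12) stayed negative. It was -0.077 with the mean of probe sets and -0.075 with the unlisted genes, -0.10 without probe sets that can bind several transcripts, -0.089 among genes above the median level, -0.15 after repeated quantile normalization, and -0.16 to -0.10 when single arrays were left out. Differences of Rfx1 and Mast1, close to 0, changed sign when some single arrays were left out. No paired analysis was possible because no label links a tumour line to a parental array. Whether signal over background limited the differences was not tested. Of the 44 genes from Asf1b to N4bp1, the 6 at a parental level under 7 differed by -0.14 to 4.24, with a median of 1.79. These 6 include Neto2, which was bright in tumour lines, and Lyl1, under 6 in all groups, which differed by 0.12. The median was 1.74 for the 12 genes at 7 to 9 and 2.10 for the 16 at 9 to 11. It was 1.30 for the 10 genes at 11 or more, whose highest difference was 2.24.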

Other observations

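Outside chromosome 8, the highest running median over 15 genes for tumour lines minus parental arrays was 0.97, on the X chromosome from Hcfc1 to Ikbkg. On that stretch it was 0.97 in line 3, 0.98 in line 4, 1.01 in line 5 and 1.07 in line 6. On chromosome 5 the window from Gm19619 to Cxcl10 reached 1.08 in line 5. The highest window of chromosome 6 over 15 genes was 0.63, from Plekha5 to Spx. Over windows of 9 genes, chromosome 6 reached 2.14, from Col1a2 to Asb4, near the 2.24 of chromosome 8. In line 5 alone, the 9-gene window of chromosome 5 from Cxcl5 to Epgn reached 2.62, above the 2.49 of chromosome 8. Over 15 genes, the lowest windows were -0.77 on chromosome 2, from Nacc2 to Agpat2, and -0.67 on chromosome 19, from Sipa1 to Pola2.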
